A study of Rattus norvegicus with 23 samples.

Results

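The 10 genes described here are the G1 cyclins and the inhibitors of their kinases: the D cyclins Ccnd1, Ccnd2 and Ccnd3, the E cyclins Ccne1 and Ccne2, the Cip/Kip inhibitors Cdkn1a, Cdkn1b and Cdkn1c, and the INK4 inhibitors Cdkn2b and Cdkn2c. They were taken by symbol from the 30452 genes of a rat count table. Of the 10, 8 passed the filter on low counts and were tested together with 14777 genes in all. Cdkn1c and Cdkn2b did not pass it.

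D cyclins bind the kinases CDK4 and CDK6 early in G1, and E cyclins bind CDK2 close to the start of DNA replication. These kinases phosphorylate the retinoblastoma protein, which then releases E2F factors and allows the genes of DNA replication to be transcribed. INK4 proteins bind CDK4 and CDK6 alone, whereas Cip/Kip proteins bind cyclin and kinase together and can hold CDK2 inactive. In kidney tubule cells Cdkn1a is best known as a gene that rises after injury.

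NRK-52E cells, a rat kidney line of epithelial origin labelled NRKE, and NRK-49F cells, a rat kidney fibroblast line labelled NRKF, were both kept without serum for 24 h. They were then held for 48 h in medium of pH 7.4 or pH 6.0, and poly(A) RNA was sequenced from n = 6 NRK-52E samples at each pH, n = 6 NRK-49F samples at pH 7.4 and n = 5 at pH 6.0. Every culture, the controls included, thus lacked serum before the incubation, and each cell type is represented by a single line. The labels also give a sample group, 1 or 3 for NRK-52E and 4 or 6 for NRK-49F, without saying what it is. Each sample group holds both pH values, with 3 samples each except 2 for NRK-49F at pH 6.0 in sample group 4. The labels do not say whether samples were separate cultures, so the tests measure the spread between these samples, which may be partly technical.

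Total counts ranged from 16412564 to 34250535 per sample. Levels are given as FPM, counts scaled to the same library size (TMM, per 1000000 counts of tested genes), and 3 counts, taken as the smallest level a library can show, correspond to 0.0839 to 0.203 FPM. This limit covers counting error only, whereas the 95% intervals given below come from the spread between samples. Of 11 epithelial markers, 9 were in the table and 6 of them, Cdh1 and Epcam among them, lay below 0.2 FPM on average in NRK-52E cells at pH 7.4, where Krt8 (499 FPM) and Krt7 (21.8 FPM) were the clearest. The summed level of these markers was 469 to 687 FPM in NRK-52E cells at pH 7.4 and 200 to 265 FPM at pH 6.0, against 728 to 1255 FPM and 509 to 747 FPM in NRK-49F cells, so it did not set the epithelial line above the fibroblasts. The summed level of 11 fibroblast markers was 19080 to 21367 FPM in NRK-49F cells at pH 7.4 and 5637 to 8859 FPM in NRK-52E cells, where Col3a1 made up most of it. At pH 6.0 both sums lay below those at pH 7.4, with overlap for the epithelial sum in NRK-49F cells, and the fibroblast sum was 2159 to 3535 FPM in NRK-52E and 14216 to 15491 FPM in NRK-49F cells. The summed level of 6 leukocyte markers was 22.6 to 33.9 FPM at pH 7.4 and 218 to 253 FPM at pH 6.0 in NRK-49F cells, nearly all of it Cd68, a protein of lysosomes, while Ptprc, which marks leukocytes, was at 0 there at pH 6.0. In NRK-52E cells that sum was at most 10.2 FPM. The part of these sums in the results on the 10 genes was not tested. Replicate A021 of NRK-52E at pH 7.4 stood apart: its levels of the fibroblast genes Pdgfra, Vcam1, Col1a2 and Lum were 1.18 to 2.37% of the NRK-49F mean and above those of every other NRK-52E sample. Results that change without it are given with and without it.

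At pH 6.0, NRK-52E cells held about 21 times as much Cdkn1a RNA as at pH 7.4, less Cdkn2c, Ccne2, Ccnd1 and Cdkn1b, and slightly more Ccnd3. In NRK-49F cells, 1 of the 8 genes changed, Cdkn1b, which fell as it did in NRK-52E cells. The change of Cdkn1a, Cdkn2c and Ccnd1 differed between the lines. In counts, 6 of 8 genes changed in NRK-52E cells (2 higher, 4 lower) beside 61.2% of all tested genes (24.7% higher, 36.6% lower), and 1 of 8 in NRK-49F cells (lower) beside 28.9% (14.5% higher, 14.4% lower). A changed member is thus not in itself unusual in NRK-52E cells, and the sizes of the changes carry the description. A gene was called changed at a Benjamini-Hochberg adjusted p under 0.05 over all tested genes in edgeR's quasi-likelihood test.

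**Figure D1:**
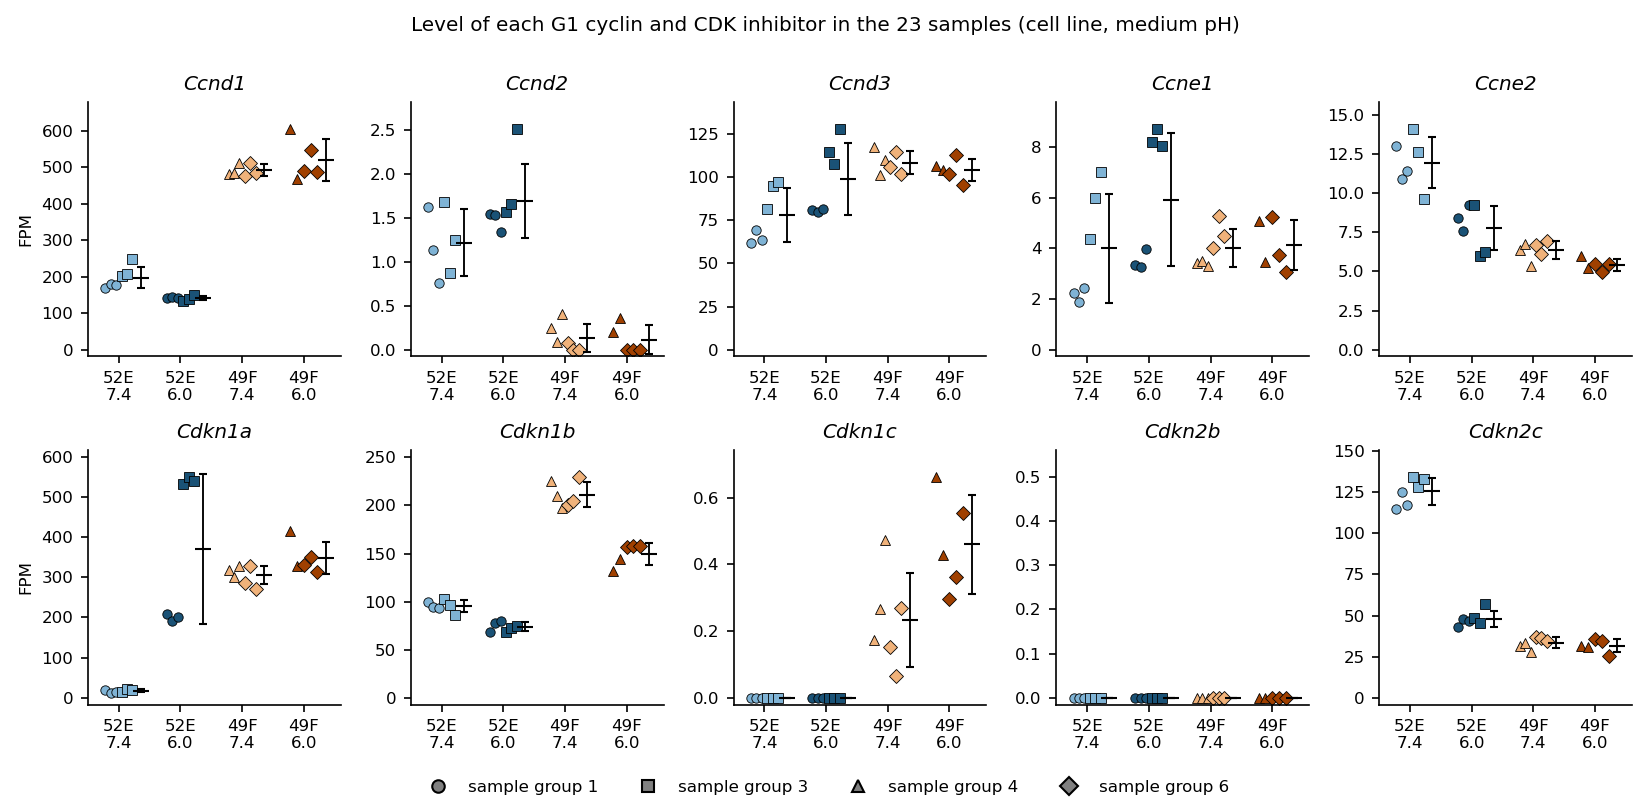
Level in FPM (linear axis from 0) of each gene in each of the 23 samples, by cell line (52E, 49F) and medium pH. Points are samples, marker shapes are sample groups, and the bar beside them is the mean ± SD. Cdkn1a in NRK-52E cells at pH 6.0 forms 3 samples near 200 FPM and 3 near 540 FPM, Cdkn1c is at 0 in all NRK-52E samples, and Cdkn2b is at 0 throughout.

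Cdkn1a (ENSRNOG00000000521, chromosome 20) encodes p21, a Cip/Kip inhibitor. In NRK-52E cells at pH 7.4 its level ranged from 13.2 to 21.8 FPM with a median of 17.4, the lowest of the 4 conditions. At pH 6.0 the 3 samples of sample group 1 held 190, 200 and 207 FPM, and the 3 of sample group 3 held 532, 539 and 550 FPM. No sample of one pH overlapped with the other, and the mean over all 6 was 370 FPM ± 187 (SD, n = 6). The rise was 4.41 ± 0.27 on the log2 scale (SE, adjusted p = 2.1e-12), with 4.45 (adjusted p = 2.2e-11) when A021 was left out. In NRK-49F cells the level was already 271 to 327 FPM at pH 7.4, and at pH 6.0 the samples held 313, 327, 331, 350 and 415 FPM. The log2 change there was 0.19 ± 0.24 (adjusted p = 0.61, 95% interval -0.29 to 0.66), so a rise of the size seen in NRK-52E cells lies far outside this interval. The difference between the responses was 4.23 ± 0.35 (adjusted p = 2.7e-09).

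The Cdkn1a response also differed between the sample groups of NRK-52E. It was 3.68 ± 0.15 on the log2 scale in sample group 1 and 4.82 ± 0.16 in sample group 3, a difference of -1.14 ± 0.20 (adjusted p = 8.5e-04). Without A021, whose 19.6 FPM was the highest pH 7.4 value of its sample group, the difference was -0.93 (adjusted p = 0.0029). At pH 7.4 the sample groups overlapped, with 13.2 to 19.6 FPM against 15.1 to 21.8 FPM, and they stood apart at pH 6.0. What a sample group is was not given, so its part in this difference cannot be told apart from that of a batch. Of the 8 genes, 1 differed in this way, beside 10.6% of all tested genes.

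Of the 10 genes, 6 (Cdkn1a, Ccnd3, Ccne1, Cdkn1b, Cdkn2b and Cdkn2c) had a RefSeq window of 300 bases around the start of a transcript, on the GRCr8 assembly, which is not the build of the counts. Both strands of all 33469 windows were searched for E2F sites (TTTCCCGC, TTTCGCGC, TTTGCCGC or TTTGGCGC, in 2.14% of windows), the Sp1 box GGGCGG (33.1%), the CHR element TTTGAA (18.3%) and TATAAA (14.2%). Where a member had several windows, only the first listed was read for it, whereas the percentages cover all windows. The Cdkn1a window that was read held none of these. GGGCGG was in the windows of Ccnd3, Ccne1, Cdkn1b, Cdkn2b and Cdkn2c, and TTTGAA in that of Cdkn2b. A match describes the letters of a window and does not show binding, and these data hold no measurement of binding.

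Cdkn1b (ENSRNOG00000007249, chromosome 4) encodes p27, the Cip/Kip inhibitor that accumulates in resting cells. In NRK-49F cells it ranged from 197 to 230 FPM at pH 7.4 with a median of 207, and the samples at pH 6.0 held 132, 144, 157, 157 and 158 FPM. In NRK-52E cells it ranged from 85.7 to 103 FPM at pH 7.4 and from 68.8 to 80.0 FPM at pH 6.0. Neither line had a sample that overlapped between pH values. The log2 change was -0.50 ± 0.07 in NRK-49F (adjusted p = 6.3e-06) and -0.37 ± 0.07 in NRK-52E (adjusted p = 3.4e-05). The difference between the responses was 0.13 ± 0.09 (adjusted p = 0.31, 95% interval -0.06 to 0.31). All genes together had a median log2 change of -0.12 in NRK-52E cells, and relative to it the fall of Cdkn1b there was -0.25. Cdkn1b was the only tested member called in both lines.

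Cdkn1c (ENSRNOG00000059500, chromosome 1) encodes p57, the imprinted Cip/Kip inhibitor. All 12 NRK-52E samples had 0 counts. NRK-49F samples had 2 to 7 counts at pH 7.4 and 7 to 13 counts at pH 6.0, with means of 0.234 and 0.460 FPM. The NRK-49F mean was 1.69-fold the level of 3 counts per NRK-52E library at pH 7.4 and 3.14-fold at pH 6.0. These ratios leave out the counting error of the NRK-49F mean itself. The samples of both pH values overlapped in NRK-49F cells, and in a fit without the filter the change with pH was not called (log2 change 1.01, adjusted p = 0.23). Cdkn1c entered that fit only through NRK-49F cells, the line where it was higher, so its difference between the lines is a description. Each NRK-49F sample had at least 2 counts and each NRK-52E sample had 0, and the fold against samples without counts is not given.

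Cdkn2c (ENSRNOG00000008956, chromosome 5) encodes p18, an INK4 inhibitor. In NRK-52E cells its level ranged from 115 to 134 FPM at pH 7.4 with a median of 127, and from 42.8 to 56.8 FPM at pH 6.0 with a median of 47.5. These ranges lay far apart. The fall was 1.38 ± 0.09 on the log2 scale (adjusted p = 3.6e-12), a 2.61-fold lower level. In contrast to Cdkn1a, the response was nearly equal in both sample groups, with -1.37 ± 0.11 and -1.39 ± 0.11. In NRK-49F cells the level was 27.8 to 36.9 FPM at pH 7.4, and the samples at pH 6.0 held 25.6, 30.8, 31.4, 34.6 and 35.5 FPM. The log2 change there was -0.08 ± 0.09 (adjusted p = 0.53, 95% interval -0.26 to 0.09). The responses of the lines differed by -1.30 ± 0.12 (adjusted p = 2.2e-08).

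Cdkn2b (ENSRNOG00000006735, chromosome 5) encodes p15, the INK4 inhibitor known for its induction by TGF-beta. It had 0 counts in each of the 23 samples. If its reads can be counted in this table, that allows a level of up to 0.0839 to 0.203 FPM in a library. Its neighbour at the same locus, Cdkn2a, had at most 1 count in any NRK-52E sample and at most 12 in any NRK-49F sample. Cdc45, a replication gene that dividing cells use, also had 0 counts in every sample, so a count of 0 in this table does not by itself show that a gene was silent.

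Ccnd1 (ENSRNOG00000020918, chromosome 1) encodes cyclin D1, which growth factors induce. In NRK-52E cells it ranged from 168 to 248 FPM at pH 7.4 with a median of 191, and from 132 to 149 FPM at pH 6.0 with a median of 141. The ranges did not overlap, and the pH 6.0 samples were tightly grouped. The fall was 0.49 ± 0.08 on the log2 scale (adjusted p = 2.2e-05), with 0.30 ± 0.10 in sample group 1 and 0.65 ± 0.10 in sample group 3. The sample groups differed at pH 7.4 (168 to 179 FPM against 204 to 248 FPM) rather than at pH 6.0, and their difference in response did not pass the test (0.35 ± 0.14, adjusted p = 0.11). In NRK-49F cells the level was 476 to 513 FPM at pH 7.4, and the samples at pH 6.0 held 468, 486, 491, 548 and 606 FPM. The log2 change was 0.08 ± 0.09 (adjusted p = 0.53, 95% interval -0.09 to 0.25), and the responses of the lines differed by -0.56 ± 0.12 (adjusted p = 5.5e-04).

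Ccnd3 (ENSRNOG00000050258, chromosome 9), which encodes cyclin D3, was higher at pH 6.0 in NRK-52E cells by 0.34 ± 0.12 on the log2 scale (adjusted p = 0.019). The levels were 61.7 to 96.8 FPM at pH 7.4 and 79.9 to 128 FPM at pH 6.0, so the pH values overlapped over all samples. Within each sample group they did not overlap: 61.7 to 69.3 FPM against 79.9 to 81.6 FPM in sample group 1, and 81.3 to 96.8 FPM against 107 to 128 FPM in sample group 3. Both within-group rises were called (0.32, adjusted p = 0.0067, and 0.36, adjusted p = 0.0020). The call over all samples was lost without A021 (0.28, adjusted p = 0.054), without A023 (0.29, adjusted p = 0.052) or without A038 (0.26, adjusted p = 0.067). In NRK-49F cells Ccnd3 held 101 to 117 FPM at pH 7.4 and 95.4 to 113 FPM at pH 6.0, a log2 change of -0.06 ± 0.13 (adjusted p = 0.79). The difference between the lines was 0.40 ± 0.18 (adjusted p = 0.076) and passed the test with DESeq2 (0.45, adjusted p = 0.042), with RLE scaling (0.45, adjusted p = 0.049), with total counts alone (0.43, adjusted p = 0.039) and with the sample group as a block (0.39, adjusted p = 0.0015). It did not pass in the other 4 of 8 alternatives, nor in 18 of 23 fits with 1 sample left out.

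Ccnd2 (ENSRNOG00000062959, chromosome 4), which encodes cyclin D2, was scarce in both lines. NRK-52E samples held 0.754 to 1.68 FPM at pH 7.4 and 1.34 to 2.52 FPM at pH 6.0, from 16 to 58 counts each. NRK-49F samples had 0 to 7 counts. In 5 of the 6 samples of sample group 6 the count was 0, and the sixth had 2. Ccnd2 passed the filter on low counts only through NRK-52E cells. No pH change was called there (log2 change 0.46 ± 0.45, adjusted p = 0.39), and none is given for NRK-49F cells, whose samples held 17 counts in all at pH 7.4 and 10 at pH 6.0.

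Ccne2 (ENSRNOG00000008055, chromosome 5) encodes cyclin E2. In NRK-52E cells it ranged from 9.62 to 14.1 FPM at pH 7.4 with a median of 12.0, and from 6.01 to 9.23 FPM at pH 6.0 with a median of 7.99, without overlap. The fall was 0.62 ± 0.12 on the log2 scale (adjusted p = 1.4e-04). In NRK-49F cells the level was 5.34 to 6.95 FPM at pH 7.4, and at pH 6.0 the samples held 4.94, 5.24, 5.49, 5.50 and 5.96 FPM. The log2 change of -0.23 ± 0.13 was not called (adjusted p = 0.20), nor was the difference between the lines (-0.38 ± 0.18, adjusted p = 0.093), so Ccne2 is not shown to respond differently in the lines.

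Ccne1 (ENSRNOG00000014786, chromosome 1) encodes cyclin E1. In NRK-52E cells its level followed the sample group: sample group 1 held 1.88 to 2.45 FPM at pH 7.4 and 3.28 to 3.99 FPM at pH 6.0, and sample group 3 held 4.37 to 7.02 FPM and 8.04 to 8.72 FPM. The pH values did not overlap within a sample group but did over all samples. Over all samples the log2 change of 0.58 ± 0.31 was not called (adjusted p = 0.11). Within sample groups it was 0.69 ± 0.22 (adjusted p = 0.014) and 0.52 ± 0.20 (adjusted p = 0.035), both called. In NRK-49F cells Ccne1 held 3.31 to 5.26 FPM at pH 7.4 and 3.06 to 5.23 FPM at pH 6.0, with a log2 change of 0.04 ± 0.32 (adjusted p = 0.95). The difference between the lines was not called (0.54, adjusted p = 0.36), but was with the sample group as a block (0.57, adjusted p = 0.047).

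In all, 5 of the 8 tested genes (Cdkn1a, Cdkn2c, Ccne2, Ccnd1 and Cdkn1b) had no overlap between pH values in NRK-52E cells, beside 38.6% of all tested genes, and 1 of 8 (Cdkn1b) in NRK-49F cells, beside 20.6%. The response differed between the lines for 3 of 8 genes (1 in the direction of NRK-52E cells being higher, 2 lower), beside 41.4% of all genes (16.8% higher, 24.7% lower). With the sample group as a block, 5 of 8 differed, Ccnd3 and Ccne1 being added. The lines shared no samples, and each response has its own controls. RNA was taken from whole cultures, so fewer cells with a transcript and less of it per cell cannot be told apart.

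**Figure D2:**
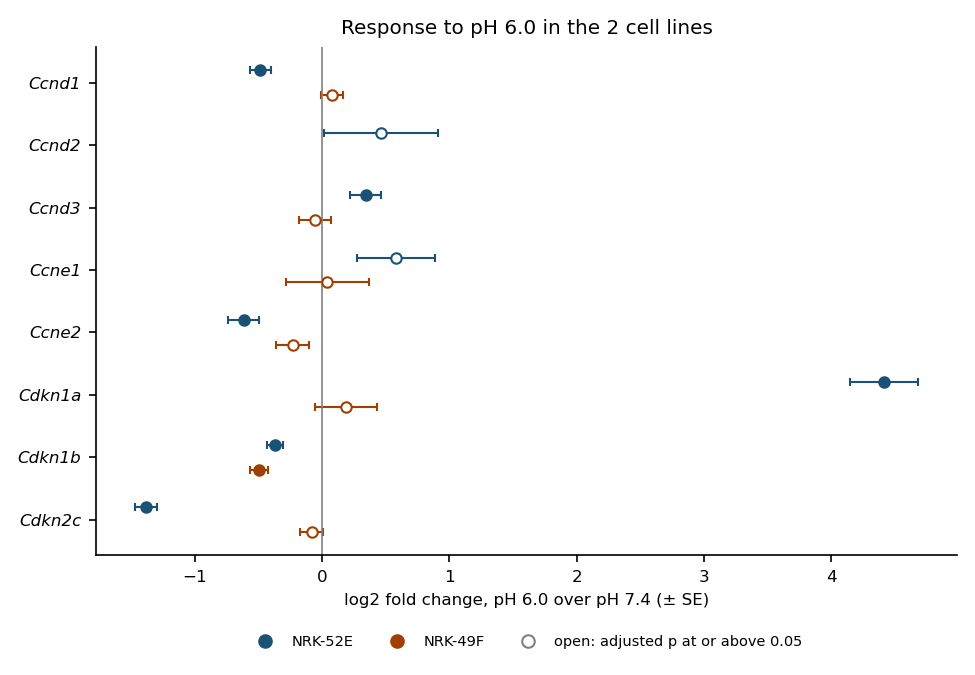
Log2 fold change from pH 7.4 to pH 6.0 (horizontal axis, ± SE) of the 8 tested genes in NRK-52E (blue) and NRK-49F (orange) cells, Ccnd2 in NRK-52E alone. Filled points passed an adjusted p of 0.05. Cdkn1a in NRK-52E cells lies at 4.41, while all other values lie between -1.38 and 0.58.

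In sample group 1 of NRK-52E, 7 of 8 were called (3 higher, 4 lower) beside 48.9% of all genes, and in sample group 3 also 7 of 8 (3 higher, 4 lower) beside 57.4%. Ccnd2 was the gene not called in both. In sample groups 4 and 6 of NRK-49F, 1 of 8 was called in each, Cdkn1b, beside 23% and 21.2% of all genes, with log2 changes of -0.61 ± 0.09 and -0.43 ± 0.08. No member's response differed between the sample groups of NRK-49F, where edgeR called 0 of all genes (0%, with 596 genes at an unadjusted p under 0.05) and DESeq2 called 2 higher and 8 lower.

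**Figure D3:**
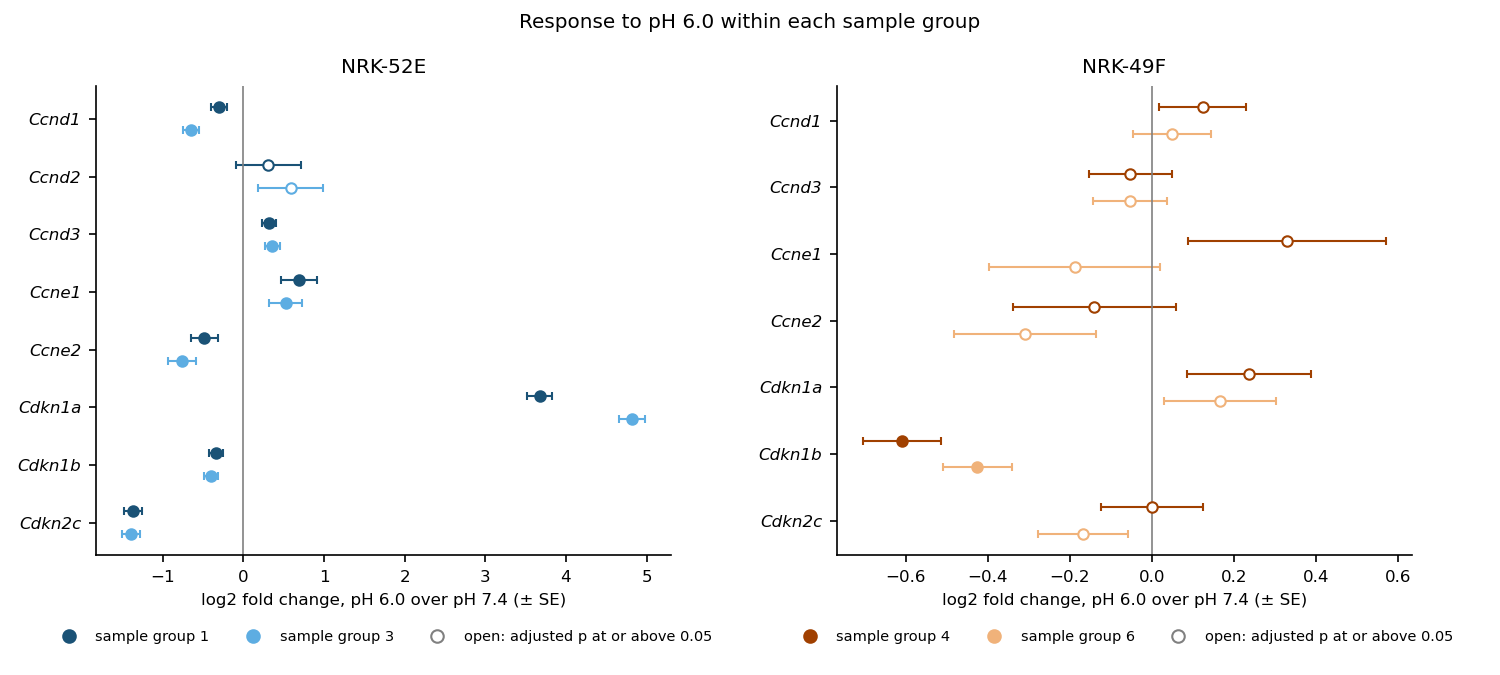
Log2 fold change from pH 7.4 to pH 6.0 (horizontal axis, ± SE) within sample groups 1 and 3 of NRK-52E (left) and 4 and 6 of NRK-49F (right); the axes have different ranges, and filled points passed an adjusted p of 0.05. Ccnd2 is left out for NRK-49F, where no sample had more than 7 counts. The sample groups of NRK-52E stand apart for Cdkn1a (3.68 and 4.82) and nearly coincide for Cdkn2c (-1.37 and -1.39).

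The lines themselves differed in most of these genes before any acid exposure. At pH 7.4, 7 of 8 genes differed between these lines, beside 68.8% of all tested genes, and at pH 6.0 5 of 8, beside 75.5%. With cell line and culture history joined, these differences cannot be assigned to the cell type. NRK-52E cells at pH 7.4 held less Cdkn1a (17.6-fold, log2 difference -4.14 ± 0.26, adjusted p = 8.7e-13), Ccnd1 (2.49-fold), Cdkn1b (2.21-fold) and Ccnd3 (1.39-fold) than NRK-49F cells. They held more Cdkn2c (3.74-fold, log2 difference 1.90 ± 0.09, adjusted p = 2.6e-15) and Ccne2 (1.87-fold). Ccnd2 is counted among the genes that differed at both pH values, but it entered the test only through the line where it was higher, so its difference is a description: each NRK-52E sample lay above each NRK-49F sample, which held at most 0.406 FPM at pH 7.4 and 0.366 FPM at pH 6.0. Ccne1 did not pass the test (log2 difference -0.02, 95% interval -0.63 to 0.58), and the value was 0.15 with total counts alone and -0.71 with the block (adjusted p = 0.0035).

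At pH 6.0 the Cdkn1a levels of the lines met: 190 to 550 FPM in NRK-52E against 313 to 415 FPM in NRK-49F, a log2 difference of 0.09 ± 0.24 (adjusted p = 0.74, 95% interval -0.38 to 0.56). The NRK-49F samples lay between the sample groups of NRK-52E. With the sample group as a block, which sets sample group 1 beside sample group 4, the difference was -0.58 (adjusted p = 0.015). Cdkn2c remained higher in NRK-52E cells by 0.60 ± 0.09 on the log2 scale (adjusted p = 2.1e-06) and Ccnd1 lower by a log2 difference of -1.88 ± 0.09 (adjusted p = 2.0e-15). Cdkn1b (-1.02 ± 0.07, adjusted p = 1.6e-12) and Ccne2 (0.52 ± 0.13, adjusted p = 0.0010) also differed. Ccnd3 did not pass the test, with a log2 difference of -0.08 ± 0.13 (adjusted p = 0.59) that was 0.14 with libraries scaled by total counts alone, and with the block it was -0.37 (adjusted p = 4.5e-04). Ccne1 did not pass it either (0.52 ± 0.32, adjusted p = 0.15) but did with total counts alone (0.74, adjusted p = 0.035), and with the block its sign turned (-0.15, adjusted p = 0.54).

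**Figure D4:**
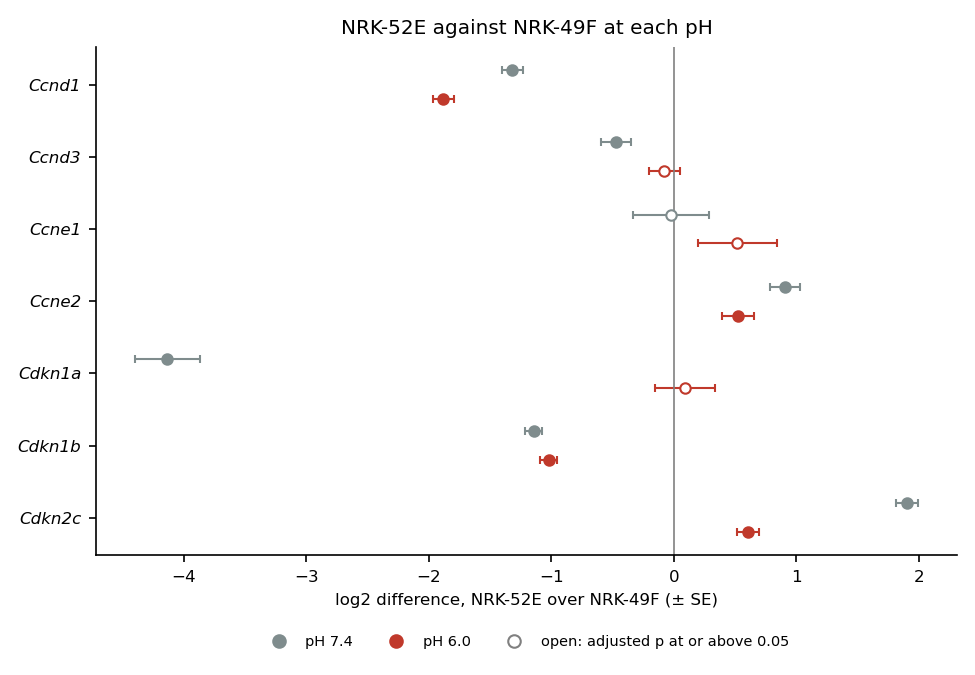
Log2 ratio of NRK-52E over NRK-49F (horizontal axis, ± SE, values above 0 are higher in NRK-52E) at pH 7.4 (grey) and pH 6.0 (red). Filled points passed an adjusted p of 0.05. Ccnd2 is left out, as NRK-49F samples had at most 7 counts. Cdkn1a moves from -4.14 at pH 7.4 to 0.09 at pH 6.0 and Cdkn2c from 1.90 to 0.60.

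By mean level, Cdkn1a was lowest in NRK-52E at pH 7.4 and then rose over NRK-49F at pH 7.4 (305 FPM ± 23, SD, n = 6), NRK-49F at pH 6.0 (347 FPM ± 40, SD, n = 5) and NRK-52E at pH 6.0, and the ranges of these last 3 overlapped. Cdkn2c was highest in NRK-52E at pH 7.4 (125 FPM ± 8, SD, n = 6), followed by NRK-52E at pH 6.0 (48.1 FPM ± 4.7, SD, n = 6) and by both NRK-49F conditions, which overlapped. The genes whose log2 FPM followed Cdkn1a most closely over the 23 samples, among 10236 candidate genes, were Golt1b (Pearson's coefficient 0.98), Sart1 (0.98) and Calu (0.98). Those that followed Cdkn1b were Glud1 (0.99), Bmt2 (0.99) and Capn6 (0.99). The samples share 4 conditions and these coefficients describe that pattern alone.

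Other genes of the G1 machinery are described by lists, each with its count of called genes and its median log2 change beside the median of all tested genes, -0.12 in NRK-52E and 0.00088 in NRK-49F. The shares of all genes called higher or lower in each line, given above, apply to them too.

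Of the kinases, pocket proteins and E2F factors, 19 of 20 were in the table and tested. In NRK-52E cells 7 were higher, 6 lower and 6 not called, with a median of -0.10. Rb1, which encodes the retinoblastoma protein, rose from 17.1 FPM ± 2.0 to 36.9 FPM ± 7.2 (SD, n = 6 each, log2 change 1.10 ± 0.14, adjusted p = 5.5e-07). E2f8, an E2F factor that represses, fell from 1.46 FPM ± 0.78 to 0.384 FPM ± 0.169 (log2 change -1.92 ± 0.36, adjusted p = 6.4e-05). Its lowest NRK-52E sample at pH 6.0 held 0.164 FPM, where 3 counts correspond to 0.0873 to 0.165 FPM. The fall of E2f8 thus ended close to the smallest level a library can show. The D cyclin partners Cdk4 (-0.46, adjusted p = 7.6e-04) and Cdk6 (-0.66, adjusted p = 0.011) fell, and the E cyclin partner Cdk2 rose (0.28, adjusted p = 0.016), these 3 being named for their binding to the members. For none of them was the difference between the lines called (Cdk4 -0.27, adjusted p = 0.17, Cdk6 -0.74, adjusted p = 0.060, and Cdk2 0.07, adjusted p = 0.74). In NRK-49F cells 2 of the 19 list genes were higher, 1 lower and 16 not called. E2f4 rose there by 0.32 ± 0.07 (adjusted p = 0.0016) and Tfdp1, the partner of E2F factors, fell by 0.39 ± 0.06 on the log2 scale (adjusted p = 1.6e-05). Both moved the same way in NRK-52E cells (E2f4 0.41, adjusted p = 1.6e-05, and Tfdp1 -0.16, adjusted p = 0.011), and the difference between the lines was called for Tfdp1 (0.22, adjusted p = 0.026) and not for E2f4 (0.09, adjusted p = 0.50).

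Of the other cyclins and inhibitors, 14 of 17 were tested. In NRK-52E cells 5 were higher and 5 lower. Ccng1, a cyclin G gene, rose from 82.9 FPM ± 13.3 to 517 FPM ± 256 (SD, n = 6 each, log2 change 2.64 ± 0.23, adjusted p = 8.4e-10), and the mitotic cyclin Ccnb2 fell from 10.6 FPM ± 5.7 to 4.94 FPM ± 2.47 (log2 change -1.10 ± 0.34, adjusted p = 0.0066). The NRK-52E samples at pH 6.0 ranged widely for Ccng1, from 275 to 765 FPM, and its levels by sample group are not described here. In NRK-49F cells 7 were higher and 0 lower. Cdkn3, which encodes a phosphatase that acts on CDK2, rose there from 11.9 FPM ± 3.2 to 28.7 FPM ± 11 (log2 change 1.27 ± 0.34, adjusted p = 0.0070), and it rose in NRK-52E cells too (1.39, adjusted p = 0.0019), with no called difference between the lines (0.12, adjusted p = 0.87). Ccnb2 responded in opposite directions in the lines, with a difference of -2.24 (adjusted p = 5.0e-04) and a rise of 1.14 in NRK-49F cells (adjusted p = 0.011).

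Of 26 E2F target genes, which serve DNA replication and nucleotide supply, 25 were tested. In NRK-52E cells 15 were lower, 0 higher and 10 not called, with a median of -0.74. Chaf1b, a subunit of the factor that loads histones on new DNA, fell from 3.61 FPM ± 0.75 to 0.823 FPM ± 0.242 (SD, n = 6 each, log2 change -2.14 ± 0.20, adjusted p = 2.8e-09). In NRK-49F cells 8 were higher, 0 lower and 17 not called, with a median of 0.30. By sample group, 13 were higher in sample group 4 (median 0.50) and 3 in sample group 6 (median 0.14), and no gene's response was called different between them. Pole2, a subunit of a replicative polymerase, rose there from 2.89 FPM ± 0.65 to 5.45 FPM ± 1.15 (log2 change 0.90 ± 0.18, adjusted p = 5.8e-04). The response differed between the lines for 18 of 25 of these genes, each lower in NRK-52E cells, beside the 24.7% of all genes that differed in that direction.

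**Figure D5:**
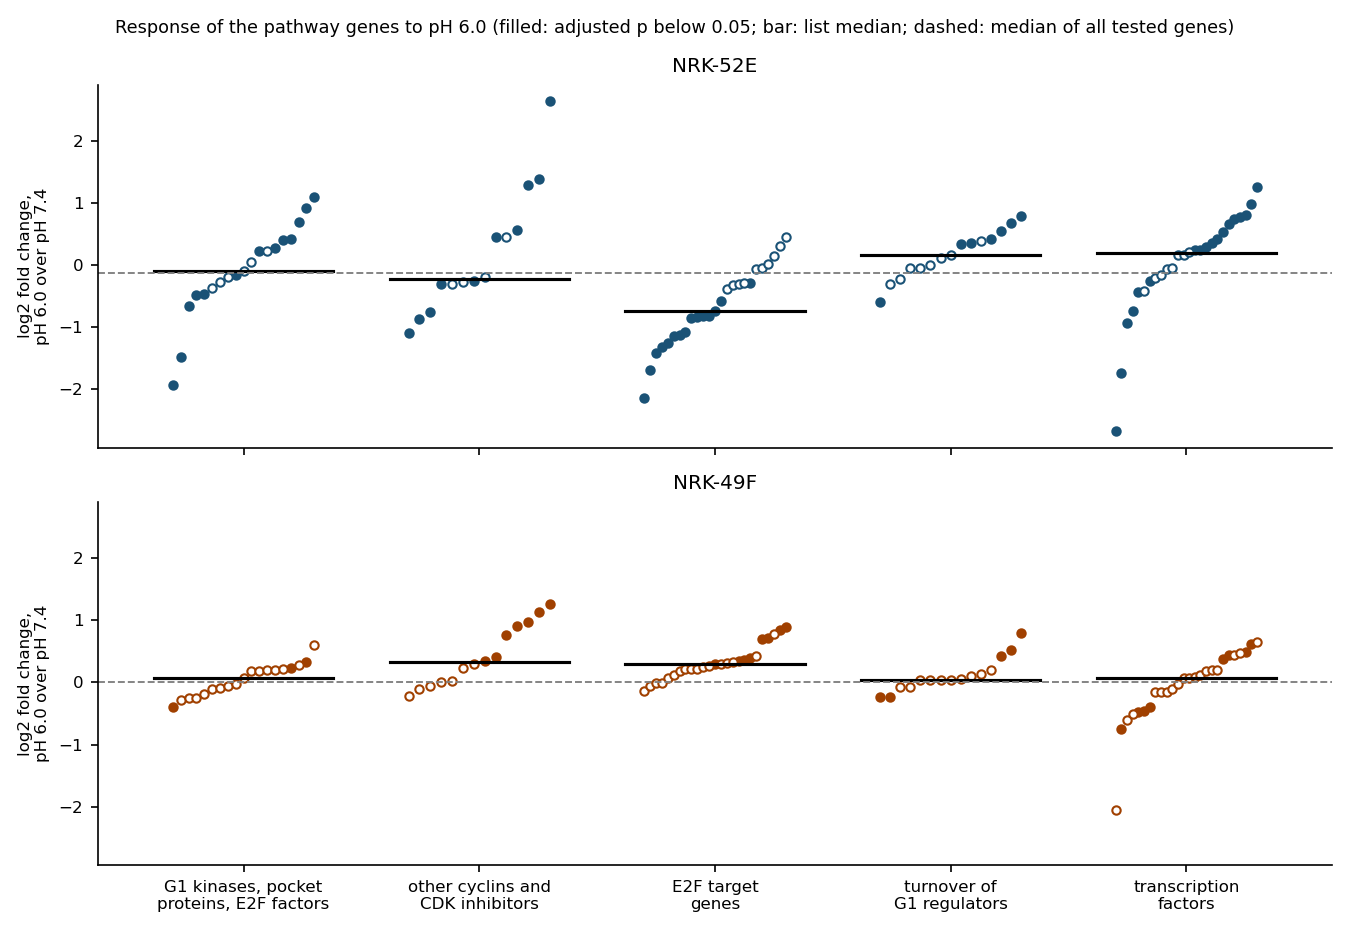
Log2 fold change from pH 7.4 to pH 6.0 (vertical axis) of each tested gene of 5 lists in NRK-52E (top) and NRK-49F (bottom) cells. Filled points passed an adjusted p of 0.05, black bars are list medians, and the dashed line is the median of all tested genes. The median of the E2F targets is -0.74 in NRK-52E and 0.30 in NRK-49F.

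Ubiquitin ligases and other factors that turn over G1 regulators formed a list of 16. Of 15 tested, 6 rose and 1 fell in NRK-52E (median 0.16), while 3 rose and 2 fell in NRK-49F (median 0.05). Skp2, which marks p27 for degradation, rose in NRK-52E cells from 6.45 FPM ± 1.02 to 11.2 FPM ± 1.2 (SD, n = 6 each, log2 change 0.79 ± 0.13, adjusted p = 7.9e-06), and the ligase scaffold Cul4b fell there (log2 change -0.60 ± 0.06, adjusted p = 2.9e-08). Skp2 rose in NRK-49F cells too (0.52, adjusted p = 0.0042), and the difference between the lines was not called (0.27, adjusted p = 0.24). In NRK-49F cells Dtl, which directs p21 to degradation in S phase, rose by 0.80 ± 0.28 (adjusted p = 0.035), and Ambra1, which directs D cyclins to degradation, fell by 0.24 ± 0.07 on the log2 scale (adjusted p = 0.014). Neither was called in NRK-52E cells (Dtl 0.40, adjusted p = 0.26, and Ambra1 -0.0031, adjusted p = 0.98). The difference between the lines was called for neither (Dtl -0.40, adjusted p = 0.46, and Ambra1 0.23, adjusted p = 0.057).

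Of 26 transcription factors known to act on these genes, all tested, 12 rose and 6 fell in NRK-52E (median 0.19), while 4 rose and 4 fell in NRK-49F (median 0.08). Max, the partner of Myc, rose in NRK-52E cells from 62.9 FPM ± 4.9 to 150 FPM ± 18 (SD, n = 6 each, log2 change 1.26 ± 0.08, adjusted p = 6.0e-12) and less in NRK-49F cells (0.44, difference between the lines 0.82, adjusted p = 5.5e-06). Mxd3, which competes with Myc for Max, fell in NRK-52E cells from 1.76 FPM ± 1.08 to 0.255 FPM ± 0.140. Its log2 change in these cells was -2.67 ± 0.42 (adjusted p = 8.4e-06). The NRK-52E samples at pH 6.0 held 0.0546 to 0.378 FPM of Mxd3, where 3 counts correspond to 0.0873 to 0.165 FPM. The size of this fall, and of the difference between the lines, thus rests on values near the smallest level a library can show. In NRK-49F cells the Mxd3 log2 change of 0.65 was not called (adjusted p = 0.13). The Mxd3 responses of the lines differed by -3.33 (adjusted p = 2.5e-05). Lin37, a subunit of the complex that represses cell cycle genes in resting cells, rose in NRK-49F cells by 0.62 ± 0.15 (adjusted p = 0.0034) and in NRK-52E cells by 0.78 (adjusted p = 7.5e-05), with no called difference (adjusted p = 0.57). In NRK-49F cells Klf4, an activator of Cdkn1a, fell from 208 FPM ± 29 to 125 FPM ± 17 (log2 change -0.74 ± 0.15, adjusted p = 5.8e-04).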

How the data were processed

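Poly(A) libraries were sequenced as paired reads of 150 bases from RNA with an integrity number above 7. The authors mapped the reads with HISAT2 2.1.0 and counted them on exons of Ensembl genes with featureCounts, multi-mapping reads included; the deposited values are raw counts without normalization. The paper's methods name rn7 and the submitters' processing notes rn6, and the strand setting is not given in the sources used here, so overlapping genes and near-identical copies can share reads. The 13 columns of the table that matched no sample label were not used.

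All 23 samples entered one edgeR 4.0.16 model (R 4.3.3) with 4 conditions, after filterByExpr (minimum count 10, minimum total 15) and TMM, and were tested by the quasi-likelihood test with Benjamini-Hochberg adjustment over all tested genes. Responses within and between sample groups came from a model with 8 conditions. Standard errors are the absolute log2 fold change over the square root of F, and 95% intervals follow from them. Replicate codes are not shared between groups, so comparisons are unpaired. Alternatives were other scalings, DESeq2 1.42.0, the likelihood ratio test, other filters, a sample group block, each line alone and each replicate left out. The code was tested on simulated data. Named list genes are the called ones that rose and fell most in each list and line, if they averaged 1 FPM or more. Other list genes named were chosen after their values were seen. Genes alike in pattern are the 3 with the highest Pearson coefficient of log2(FPM + 0.5), among those averaging 5 FPM or more. One listed gene and a list that rests on it are not reported here. The members and lists were chosen with earlier results of these data known. Figures were drawn with matplotlib.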

Additional observations from a re-analysis of the deposited data

Results flagged for a closer look

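The response to pH 6.0 differed between the cell lines by a test of the difference itself for 3 genes: Cdkn1a (log2 difference of responses 4.23, adjusted p = 2.7e-09), Cdkn2c (-1.30, adjusted p = 2.2e-08) and Ccnd1 (-0.56, adjusted p = 5.5e-04). All NRK-52E samples lay on one side for each of these genes, with no overlap between pH values, and NRK-49F samples overlapped.

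The response of Cdkn1a differed between the sample groups of NRK-52E by -1.14 on the log2 scale (sample group 1 minus sample group 3, adjusted p = 8.5e-04). In both sample groups the 3 samples at pH 6.0 lay above the 3 samples at pH 7.4.

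For Ccnd2 in NRK-52E cells at pH 6.0, replicate A038 held 2.52 FPM, above the nearest sample at 1.65 FPM and the lowest at 1.34 FPM. It was 1 of 34 sets of samples examined for an outlying value, and chance gives about 1 in 20. Without A038 the log2 change of Ccnd2 in NRK-52E cells was 0.31 instead of 0.46 and was called in neither case.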

How the results depend on the processing

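Counts of members called stayed within 1.5 times under all alternatives except 2: DESeq2 called 2 members instead of 1 for the difference between NRK-52E sample groups (Ccnd1 added, 0.35, adjusted p = 0.048), and the sample group block gave 5 instead of 3 for the difference between the lines (Ccnd3 and Ccne1 added). Leaving out each sample in turn gave 5 to 7 members changed in NRK-52E, 1 in NRK-49F, 3 to 4 differing in response, 7 and 5 differing between the lines at pH 7.4 and pH 6.0, and 1 and 0 differing between sample groups. One member value changed sign and passed the test: with the block, which compares sample group 1 with 4, Cdkn1a at pH 6.0 was lower in NRK-52E cells (-0.58, adjusted p = 0.015). Other changes of sign, such as those of Ccne1 and Ccnd3 between the lines, were not called before or after. The block also gave Ccne1 a called rise in NRK-52E cells (0.60, adjusted p = 0.0020), as did leaving out A035 (0.81, adjusted p = 0.025). Scaling by total counts moved the median of all genes by 0.19 and 0.21 for the lines at pH 7.4 and pH 6.0, where 62.0% instead of 50.8% and 57.3% instead of 48.4% of calls were then higher in NRK-52E cells, and fitting each line alone moved it by 0.12 in NRK-52E cells, where 48.9% instead of 40.3% of calls were then higher and Cdkn1b changed by -0.28 (adjusted p = 0.0024). Without the filter, Cdkn1c was not called for pH in either line, and its difference between the lines remains a description. Depth limits Ccnd2 and Cdkn1c in NRK-49F cells. Single samples could not be paired because the replicate codes are not shared between groups, so pH values were matched by sample group only.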
